A study of Xenopus tropicalis with 27 samples.

Results

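Stage 45 was compared with stage 44 in untreated, wildtype Xenopus tropicalis tadpole brains, as 1 step of a developmental time course. The members were chosen by their stage labels alone: 6 of the 27 libraries of the series, 3 from stage 45 and 3 from stage 44. The 18 untreated libraries covered stages 40, 42, 44, 45, 46 and 47, and the other libraries came from brains exposed to drug or solvent and were not used here. RNA was poly(A)-selected and sequenced from strand-specific libraries. The labels gave a pool of brains for the drug libraries only, so the number of brains behind each stage 45 or stage 44 library, their clutches and the time of day at which they were taken are unknown. Nothing in the labels said that the replicates came from separate clutches. The p-values rest on the spread of each gene among replicates within stages, estimated over all 18 untreated libraries, and part of this spread may be technical.

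Stages 44 and 45 are young tadpole stages around which feeding begins and larval behaviour matures. In vertebrate brains of this age, progenitors along the ventricles still divide, while neurons born earlier extend axons, build synapses and acquire the channels and receptors of electrical signalling. As background, gene roles named here are known mostly from mammals and were not measured in these tadpoles.

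All 12 genes checked as signs of brain tissue were present in the 6 libraries, including the pan-neuronal RNA-binding genes elavl3 and elavl4, the midbrain factor en2 and the hindbrain factor hoxb3. Depth was 20.6, 20.2 and 12.9 M counts at stage 45 and 21.9, 17.3 and 23.2 M counts at stage 44, and 3 counts corresponded to between 0.131 and 0.231 CPM (read counts scaled to library size and composition). The biological coefficient of variation was 0.0556 between stage 45 libraries and 0.0835 between stage 44 libraries. On the first principal component of the time course, which held 67.3% of the variance and ordered the stages, stage 45 libraries lay at -9.8, -5.5 and -7.9, and stage 44 libraries at -23.1, -28.7 and -18.2. Stage 44 replicate 2 thus lay nearest to the younger stages, and results that depend on it are given with and without it. The third component, with 4.74% of the variance, set stage 45 apart: its libraries lay at 24.6, 25.6 and 29.4, those of stage 44 between -11.7 and -11, and no library of another stage above 9.6.

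**Figure D1:**
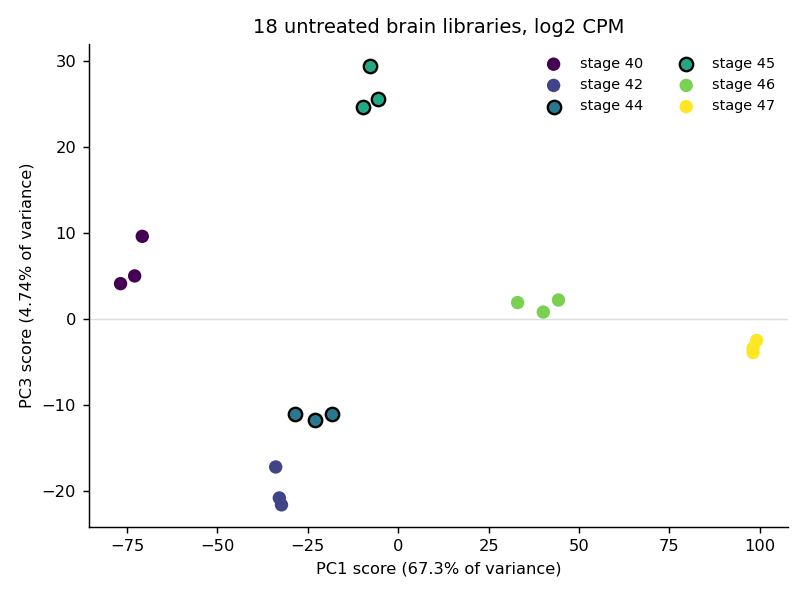
Scores of the 18 untreated libraries on the first principal component (x axis) and the third (y axis) of log2 CPM, coloured by stage, with black outlines for stages 45 and 44. The 3 stage 45 libraries lie between 24.6 and 29.4 on the third component, above all others.

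The comparison asked which transcripts change over this step. Of 16049 genes, 3667 (22.8%) differed at an adjusted p under 0.05 in edgeR's quasi-likelihood F-test with Benjamini-Hochberg adjustment: 1867 (11.6%) rose and 1800 (11.2%) fell. Without stage 44 replicate 2, 1198 rose and 1354 fell. Scaling by library totals alone, without the composition factors, gave 2252 higher and 1435 lower genes. Most changes were small. The median absolute log2 fold change of the called genes was 0.374, and 267 of them changed by more than 1 log2 unit. All 3 stage 45 libraries lay above all 3 stage 44 libraries for 20.4% of genes and below them for 20.6%. In these bulk samples, fewer cells of a type and less RNA per cell cannot be told apart.

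**Figure D2:**
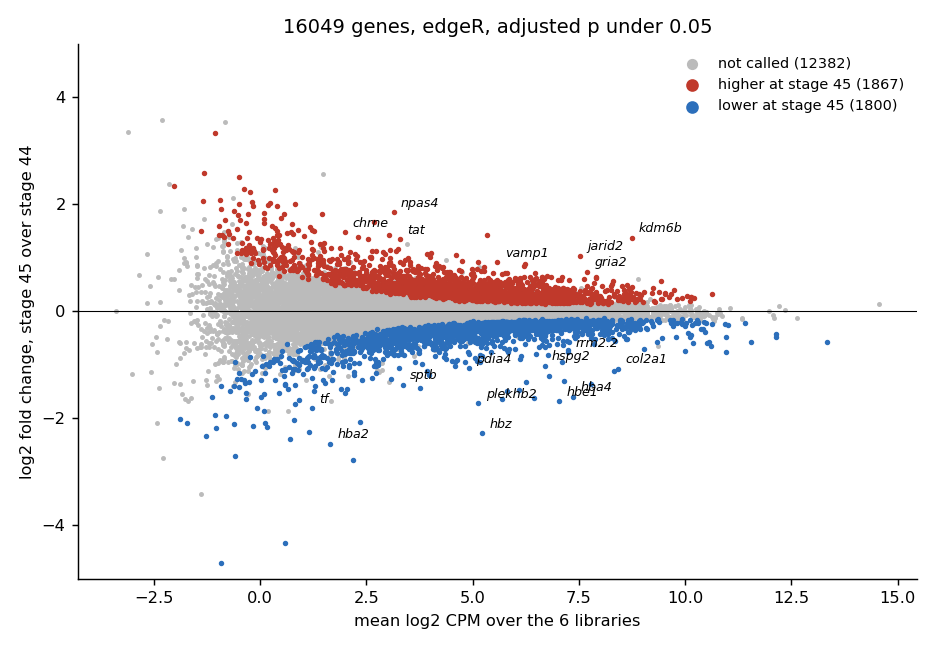
Log2 fold change of stage 45 over stage 44 (y axis) against mean log2 CPM over the 6 libraries (x axis) for 16049 genes, with the 1867 higher genes in red and the 1800 lower genes in blue. Changes of highly expressed genes were mostly under 1 log2 unit, and kdm6b and jarid2 stand out above.

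Read by gene lists, the step joined higher transcripts of synapses, channels and neuropeptides with lower transcripts of cell division, the endoplasmic reticulum, the extracellular matrix, vessels and red blood cells. The 45 lists are described by their counts beside the 11.6% of all genes that rose and the 11.2% that fell. Counts of 0 are from edgeR's test; where nothing else is said, DESeq2, limma on the deposited values and edgeR at an unadjusted p under 0.05 gave 0 as well.

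**Figure D3:**
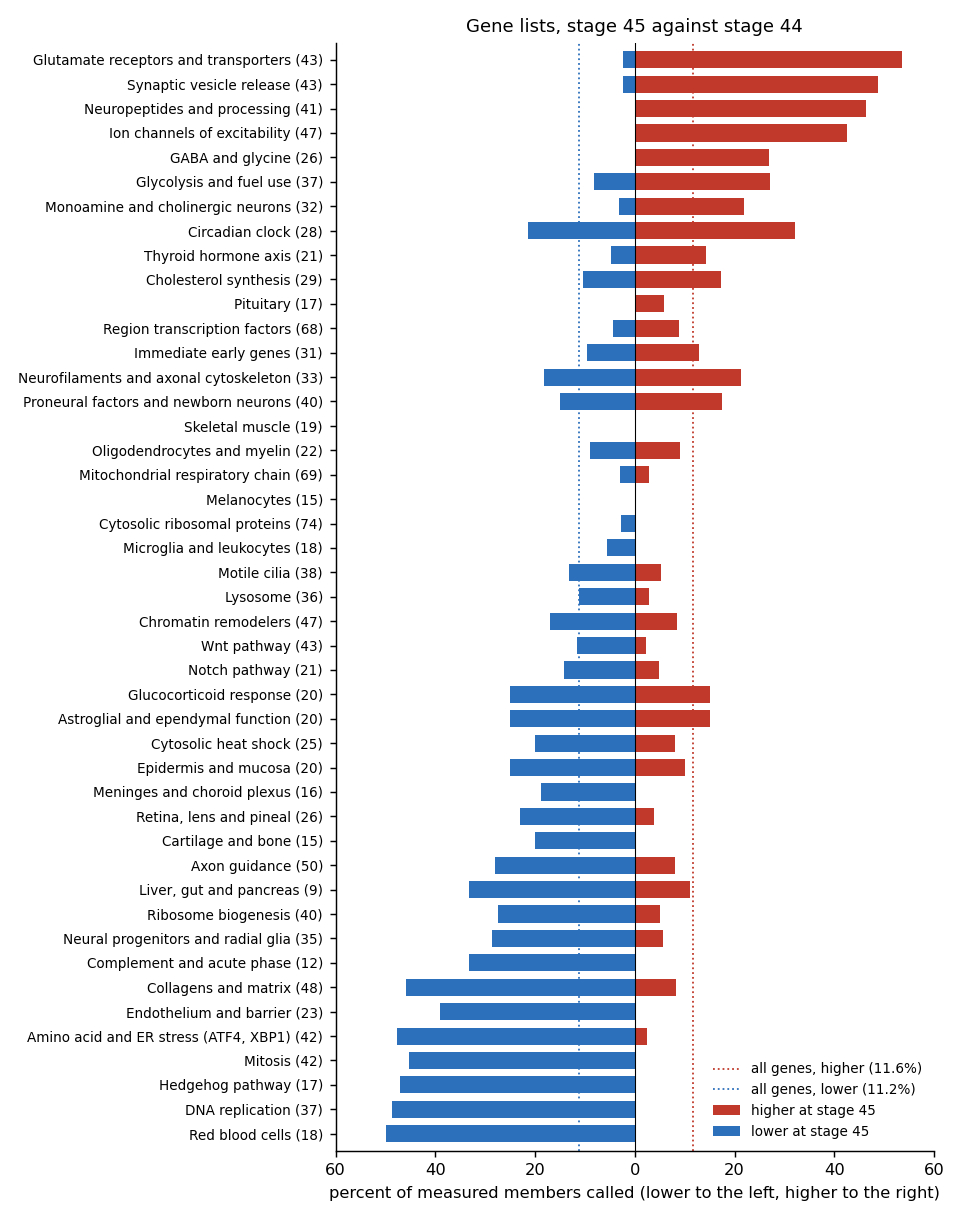
Share of the measured members of each list (count in brackets) that were called higher (red, to the right) or lower (blue, to the left) at stage 45 than at stage 44, with dotted lines at the shares of all genes, 11.6% and 11.2%. Lists of synapses, channels and neuropeptides reach furthest right, and those of red blood cells, DNA replication and amino acid and ER stress furthest left.

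Genes of the presynaptic release machinery rose. Of 43 measured genes of synaptic vesicle release, 21 rose and 1 fell, with a median log2 fold change of 0.24. Between 14 and 23 rose when any 1 of the 6 libraries was left out. The vesicle SNARE vamp1 was measured at 60.4, 65 and 72.4 CPM at stage 45, against 36.7, 33.3 and 34.3 CPM at stage 44 (log2 fold change 0.92 ± 0.12, adjusted p = 4.74e-05). The membrane SNARE snap25 had 552, 517 and 501 CPM at stage 45, against 408, 368 and 457 CPM at stage 44 (log2 fold change 0.35 ± 0.06, adjusted p = 0.000358). The groups did not overlap for either gene, and both belong to the complex that fuses vesicles with the membrane. The calcium sensors and clamps moved the same way: cplx1, a complexin, had 719, 702 and 683 CPM at stage 45, against 517, 472 and 573 CPM at stage 44 (log2 fold change 0.43 ± 0.06, adjusted p = 6.71e-05). The sensor doc2a (0.56 ± 0.09) and the active zone gene rims3 (0.85 ± 0.14) rose too, as did syt1, the calcium sensor of fast release (0.33 ± 0.08, named after its values were seen). The gene that fell, chosen the same way, was erc2 of the active zone scaffold, with 26.2, 29.5 and 32.4 CPM at stage 45, against 38.5, 42.4 and 43 CPM at stage 44 (log2 fold change -0.50 ± 0.09, adjusted p = 0.00027).

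Genes of glutamate receptors and transporters had the largest share of higher members among the 45 lists, with 23 of 43 higher, 1 lower and a median of 0.25. Without stage 44 replicate 2, 14 were higher. The AMPA receptor subunit gria2, which makes these channels nearly impermeable to calcium once its transcript is edited, had 263, 271 and 271 CPM at stage 45, against 168, 144 and 169 CPM at stage 44 (log2 fold change 0.75 ± 0.07, adjusted p = 4.02e-07). Stage 45 values were tight and lay well above the highest stage 44 value. Other AMPA and kainate subunits followed: gria1 rose by 0.39 ± 0.07, grik4 by 0.53 ± 0.07 and gria3, named after its values were seen, by 0.58 ± 0.10. The vesicular transporter slc17a6, which loads glutamate into vesicles, had 128, 141 and 133 CPM at stage 45, against 110.1, 93.4 and 103 CPM at stage 44 (log2 fold change 0.39 ± 0.08, adjusted p = 0.00183). The neuronal transporter slc1a6, also named afterwards and known in mammals from Purkinje cells, had 95.7, 99.9 and 113 CPM at stage 45, against 67.1, 41 and 58.4 CPM at stage 44 (log2 fold change 0.88 ± 0.17, adjusted p = 0.00266). The gene that fell was the metabotropic receptor grm3 (log2 fold change -0.25 ± 0.09, adjusted p = 0.0403; also named afterwards). The call of grm3 was lost without stage 45 replicates 2 or 3 or stage 44 replicates 1, 2 or 3 (adjusted p between 0.0505 and 0.155).

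Some genes of inhibitory transmission rose. Of 26 measured genes of GABA and glycine, 7 rose and 0 fell, with a median of 0.24 (4 rose without stage 44 replicate 2, and 11 rose and 1 fell when only libraries of the stages compared were fitted). The receptor subunit gabra2 had 254, 260.0 and 252 CPM at stage 45, against 193, 169 and 208 CPM at stage 44 (log2 fold change 0.43 ± 0.07, adjusted p = 0.000198). The glycine receptor subunit glrb (0.40 ± 0.08) and nlgn2, an adhesion protein of inhibitory synapses (0.38 ± 0.08), also rose. The synthetic enzyme of GABA, listed as gad1.1, had 543, 555 and 553 CPM at stage 45, against 525, 449 and 564 CPM at stage 44, and the groups overlapped (log2 fold change 0.10 ± 0.06, adjusted p = 0.269).

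Ion channels of excitability rose in 20 of 47 cases and fell in 0, with a median of 0.29. The count was 13 without stage 44 replicate 2 and 13 without stage 45 replicate 2. The calcium channel cacna1e had 153, 179 and 179 CPM at stage 45, against 117, 102 and 109 CPM at stage 44 (log2 fold change 0.64 ± 0.09, adjusted p = 3.74e-05). The sodium channel subunit scn4b had 62.5, 54.3 and 56.4 CPM at stage 45, against 38.8, 26.8 and 39.6 CPM at stage 44 (log2 fold change 0.71 ± 0.11, adjusted p = 0.000136), and its lowest stage 44 value was that of replicate 2. The fast potassium channel kcnc2 (0.58 ± 0.10) and the pacemaker channel hcn2 (0.35 ± 0.06) rose by less than 1 log2 unit as well.

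Axonal genes split. Of 33 genes of neurofilaments and the axonal cytoskeleton, 7 rose and 6 fell. The lower genes included the spectrin sptb, which is also known from red blood cells (-1.37 ± 0.26). Among the higher ones, cntnap1, which joins axon and myelin beside the node of Ranvier, had 52.6, 44.1 and 49.3 CPM at stage 45, against 28.2, 19.95 and 28.6 CPM at stage 44 (log2 fold change 0.92 ± 0.11, adjusted p = 1.54e-05). The gene cntn2 rose by 0.85 ± 0.13. The lower ones also included genes of growing axons. The collapsin response mediators crmp1 and dpysl2, which act on microtubules in growth cones, fell by 0.50 and 0.38 on the log2 scale. Both were higher again at stage 46, with means of 788 CPM for crmp1 and 1656 CPM for dpysl2, against 587 and 1232 CPM at stage 45. For crmp1 the values were 586, 606 and 568 CPM at stage 45, against 829, 820.1 and 843 CPM at stage 44 (log2 fold change -0.50 ± 0.05, adjusted p = 1.21e-06).

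Neuropeptides and their processing enzymes rose in 19 of 41 cases and fell in 0 (1 at an unadjusted p under 0.05; median 0.30). This count was 7 without stage 44 replicate 2 and 12, 11 and 12 without stage 45 replicates 1, 2 and 3. The prohormone convertase pcsk2 had 316, 295 and 318 CPM at stage 45, against 227, 214 and 225 CPM at stage 44 (log2 fold change 0.48 ± 0.05, adjusted p = 1.57e-06). The amidating enzyme pam had 269, 257 and 257 CPM at stage 45, against 198, 179.9 and 198 CPM at stage 44 (log2 fold change 0.44 ± 0.06, adjusted p = 1.05e-05), and its groups did not overlap either. Among the peptides, the tachykinin precursor tac1 rose by 0.32 ± 0.07, cartpt, known from feeding circuits, by 0.52 ± 0.12, and pmch, the melanin-concentrating hormone precursor, by 0.99 ± 0.22 (pmch was named after its values were seen). The neuropeptide gene pth2 is not in this list and fell (-1.27 ± 0.22). The nonapeptide gene oxt had 41.5, 40.01 and 42 CPM at stage 45, against 31.1, 21.7 and 22.4 CPM at stage 44 (log2 fold change 0.71 ± 0.24, adjusted p = 0.0466; also named afterwards). The call of oxt was lost without stage 45 replicates 1, 2 or 3 or stage 44 replicates 2 or 3 (adjusted p between 0.0936 and 0.159).

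The pituitary hangs from the brain and shares some of these transcripts. Its hormone genes differed more between stage 44 libraries than between stages: pomc had 83.9, 48.5 and 84.7 CPM at stage 45, against 36.4, 86.1 and 1.7 CPM at stage 44 (log2 fold change 0.84 ± 0.71, adjusted p = 0.442). The growth hormone gene gh1, named after its values were seen, had 35.1, 26 and 21.2 CPM at stage 45, against 7.25, 29.6 and 0.305 CPM at stage 44 (log2 fold change 1.25 ± 0.68, adjusted p = 0.218). Stage 44 replicate 3 was the lowest library for both. Of 17 pituitary genes, 0 fell and 1 rose, the shared glycoprotein hormone subunit cga (log2 fold change 0.76 ± 0.22, adjusted p = 0.0173). The call of cga was lost without stage 45 replicates 1 or 3 or stage 44 replicate 3 (adjusted p between 0.0578 and 0.112). Without stage 44 replicate 2, 3 pituitary genes rose. The 17 genes summed to between 223 and 265 CPM at stage 45 and between 130 and 278 CPM at stage 44. The part of pituitary tissue in the neuropeptide values was not tested.

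Among 32 genes of monoamine and cholinergic neurons, 7 rose and 1 fell. The count of higher genes was 1 without stage 44 replicate 2 and 4 without stage 45 replicate 2. The dopamine receptor drd1 had 11.1, 11.6 and 10.2 CPM at stage 45, against 7.48, 7.02 and 8.33 CPM at stage 44 (log2 fold change 0.53 ± 0.13, adjusted p = 0.00684). The acetylcholine-synthesizing enzyme chat had 27.6, 26.8 and 27.5 CPM at stage 45, against 17.3, 15.3 and 19.3 CPM at stage 44 (log2 fold change 0.65 ± 0.17, adjusted p = 0.0106). The call of chat was lost without stage 44 replicate 2 (adjusted p = 0.0578).

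Cell division genes fell. DNA replication had 18 of 37 members lower and 0 higher (median -0.27), and between 13 and 20 were lower when any 1 of the 6 libraries was left out. Mitosis had 19 of 42 lower and 0 higher (median -0.24), and 10 were lower without stage 44 replicate 2. The ribonucleotide reductase subunit rrm2.2, which makes DNA precursors, had 117, 114 and 116 CPM at stage 45, against 195, 208 and 189 CPM at stage 44 (log2 fold change -0.77 ± 0.09, adjusted p = 4.46e-06). The proliferation marker mki67 had 255, 245 and 259 CPM at stage 45, against 343, 352 and 321 CPM at stage 44 (log2 fold change -0.42 ± 0.06, adjusted p = 6.71e-05). The replication clamp pcna had 270.4, 249 and 262 CPM at stage 45, against 327, 339 and 311 CPM at stage 44 (log2 fold change -0.32 ± 0.08, adjusted p = 0.00518). All 3 genes were lower in every stage 45 library than in any stage 44 library. DNA polymerase alpha (pola1, -0.47 ± 0.06), the maintenance methyltransferase dnmt1 (-0.43 ± 0.06) and the condensin subunits smc2 (-0.49 ± 0.07) and smc4 (-0.40 ± 0.06) fell by similar sizes. The summed level of the 37 replication genes was between 2392 and 2509 CPM at stage 45, against 2940 to 3203 CPM at stage 44. Its mean was 2605, 2662, 3079, 2455, 1637 and 545 CPM at stages 40, 42, 44, 45, 46 and 47, highest at stage 44.

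Progenitor and radial glia genes fell in 10 of 35 cases and rose in 2. The intermediate filament gene vim, a mark of radial glia, had 563, 498 and 523 CPM at stage 45, against 767, 848 and 746 CPM at stage 44 (log2 fold change -0.58 ± 0.07, adjusted p = 8.82e-06). The related filament gene nes (-0.57 ± 0.08) and the glial glutamate transporter slc1a3 (-0.58 ± 0.07) fell by about as much. The receptor notch3 had 233, 277 and 269.7 CPM at stage 45, against 352, 389 and 364 CPM at stage 44 (log2 fold change -0.50 ± 0.07, adjusted p = 3.78e-05). Its relative notch1, which also keeps progenitors undifferentiated, had 246, 275 and 282 CPM at stage 45, against 379, 438 and 365 CPM at stage 44 (log2 fold change -0.56 ± 0.12, adjusted p = 0.00269). The progenitor factor sox2 did not pass the test, with 261, 267 and 262 CPM at stage 45, against 266, 299 and 253 CPM at stage 44 (log2 fold change -0.05 ± 0.06, adjusted p = 0.589). The gene id4, an inhibitor of proneural factors named after its values were seen, was among those that rose (log2 fold change 0.34 ± 0.05, adjusted p = 8.44e-05).

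Signals that pattern and maintain the progenitor zones were lower in part. In the Hedgehog pathway 8 of 17 genes fell and 0 rose (1 at an unadjusted p under 0.05; median -0.23; 5 fell without stage 44 replicate 2). The ligand-binding antagonist hhip had 9.59, 11.5 and 8.46 CPM at stage 45, against 15.1, 17.5 and 13.4 CPM at stage 44 (log2 fold change -0.62 ± 0.12, adjusted p = 0.000757), and the effectors gli2 (-0.50 ± 0.12) and gli3 (-0.32 ± 0.06) fell. In the Notch pathway 3 of 21 genes fell (14.3%, near the 11.2% of all genes) and 1 rose (4.8%, under the 11.6%). The lower genes were notch1, notch3 and hey2, and the call of hey2 was lost without stage 44 replicate 2 (adjusted p = 0.0697). The higher gene was the atypical ligand dlk1, with 44.8, 49 and 48.7 CPM at stage 45, against 33.9, 28.2 and 32.7 CPM at stage 44 (log2 fold change 0.58 ± 0.09, adjusted p = 7.66e-05). The Wnt coreceptor lrp5 fell by 0.51 on the log2 scale (log2 fold change -0.51 ± 0.08, adjusted p = 7.66e-05), and the Wnt list as a whole had 11.63% of its 43 members lower, near the 11.2% of all genes. Between 1 and 5 Wnt genes were lower when any 1 of the 6 libraries was left out, 1 of them without stage 45 replicate 1 and 2 without stage 44 replicate 2. The 1 higher Wnt gene was the target sp5 (log2 fold change 0.35 ± 0.11, adjusted p = 0.0289). The call of sp5 was lost without stage 45 replicates 1, 2 or 3 or stage 44 replicates 1 or 3 (adjusted p between 0.0574 and 0.112).

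Some neurogenic genes moved, in both directions. Of 40 proneural and newborn-neuron genes, 7 rose (17.5%) and 6 fell (15%), not far from the 11.6% and 11.2% of all genes. Between 3 and 4 rose when any 1 of the 6 libraries was left out. The proneural factor neurog2, named after its values were seen, had 15.2, 16.4 and 15.8 CPM at stage 45, against 11.2, 12.3 and 11.3 CPM at stage 44 (log2 fold change 0.45 ± 0.09, adjusted p = 0.00162). The factor neurod6 of differentiating forebrain neurons had 70.4, 72.4 and 79.4 CPM at stage 45, against 46.6, 52.1 and 53 CPM at stage 44 (log2 fold change 0.55 ± 0.09, adjusted p = 0.000111). The neurogenic factor neurod1 showed overlapping groups, with 65.8, 65.8 and 75 CPM at stage 45, against 60.8, 69.8 and 63 CPM at stage 44 (log2 fold change 0.09 ± 0.08, adjusted p = 0.443). The 6 lower genes are known from the cytoskeleton and differentiation of young neurons. The microtubule regulator stmn1 had 44, 41.5 and 40.4 CPM at stage 45, against 66.5, 69 and 68.4 CPM at stage 44 (log2 fold change -0.69 ± 0.07, adjusted p = 9.88e-07), the neuronal tubulin tubb3 fell by 0.33 and the zinc finger factor myt1 by 0.31 on the log2 scale. The pan-neuronal gene elavl3 had 591, 634 and 651 CPM at stage 45, against 687, 712 and 683 CPM at stage 44 (log2 fold change -0.15 ± 0.05, adjusted p = 0.0323). The call of elavl3 was lost without stage 45 replicates 1 or 2 or stage 44 replicates 1 or 2 (adjusted p between 0.0513 and 0.149). The axon growth gene gap43 (log2 fold change -0.27 ± 0.06, adjusted p = 0.00313) and the tubulin tubb2b (log2 fold change -0.25 ± 0.06, adjusted p = 0.00351), both named afterwards, completed the 6, and tubb2b was not lower in the deposited quantile-normalized values (0.02, limma adjusted p = 0.80).

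Axon guidance genes fell more often than they rose, with 14 of 50 lower and 4 higher. The midline attractant ntn1 had 40.9, 45.3 and 46.1 CPM at stage 45, against 74, 85.2 and 65 CPM at stage 44 (log2 fold change -0.76 ± 0.09, adjusted p = 4.07e-06). The repellent slit1 had 233, 250.2 and 244 CPM at stage 45, against 333, 366 and 339.7 CPM at stage 44 (log2 fold change -0.51 ± 0.06, adjusted p = 7.07e-06), and sema5b fell by 0.60 on the log2 scale. Of the 4 higher genes, the ephrin receptor epha8 had 7.4, 9.12 and 9.38 CPM at stage 45, against 4.34, 4.9 and 3.58 CPM at stage 44 (log2 fold change 1.02 ± 0.14, adjusted p = 2.77e-05). The other three, unc5a, unc5d and sema3d, rose by 0.22, 0.28 and 0.29, were named after their values were seen, and each lost its call when some single libraries were left out. In all, 1 guidance gene was higher without stage 45 replicate 2, 1 without stage 44 replicate 2 and 2 without stage 45 replicate 3.

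Few regional factors moved. Of 68 transcription factors and signals of brain regions, 6 rose and 3 fell, under the shares of all genes. The sensory and habenular factor listed as pou4f1.2 had 17.5, 15.9 and 17 CPM at stage 45, against 11.1, 11.2 and 10.9 CPM at stage 44 (log2 fold change 0.60 ± 0.12, adjusted p = 0.000926). The dorsal factor pax7 had 41.3, 56.6 and 52.8 CPM at stage 45, against 60.1, 71.3 and 59.9 CPM at stage 44 (log2 fold change -0.34 ± 0.09, adjusted p = 0.00756). The call of pax7 was lost without stage 45 replicate 1 (adjusted p = 0.0643). The other lower genes were otp (log2 fold change -0.27 ± 0.08, adjusted p = 0.0155; call lost without stage 45 replicate 2 or stage 44 replicate 2, adjusted p between 0.061 and 0.0825) and pax3 (log2 fold change -0.26 ± 0.09, adjusted p = 0.0302; named after its values were seen). The call of pax3 was lost without stage 45 replicates 1 or 2 or stage 44 replicates 2 or 3 (adjusted p between 0.0516 and 0.119). When any 1 of the 6 libraries was left out, between 1 and 5 genes of this list rose and between 1 and 3 fell.

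Few myelin genes were called, with 2 of 22 higher and 2 lower (4 higher and 1 lower without stage 45 replicate 3). Each share was 9.09%, under the 11.6% of all genes that rose and the 11.2% that fell. The myelin basic protein gene mbp had 100.1, 102 and 94 CPM at stage 45, against 74.3, 63.9 and 75.1 CPM at stage 44 (log2 fold change 0.47 ± 0.07, adjusted p = 4.34e-05), and mag, a myelin protein facing the axon, rose by 0.48 ± 0.13. The tight junction gene cldn11, which in mammals seals myelin and is also made outside it, had 14.8, 13.6 and 14.4 CPM at stage 45, against 27.4, 19.7 and 25.5 CPM at stage 44 (log2 fold change -0.77 ± 0.14, adjusted p = 0.000603). The myelin regulator myrf was low throughout, with 1.61, 1.94 and 0.692 CPM at stage 45, against 3.6, 2.54 and 2.27 CPM at stage 44 (log2 fold change -0.93 ± 0.29, adjusted p = 0.0243). The call of myrf was lost without stage 45 replicate 3 or stage 44 replicate 1 (adjusted p between 0.113 and 0.135).

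Among 20 genes of astroglial and ependymal function, 5 fell and 3 rose. The lower ones included the potassium channel kcnj10 (-0.37 ± 0.08), the gap junction gene gja1 (-0.56 ± 0.12), slc1a3 and the bicarbonate transporter slc4a4 (log2 fold change -0.37 ± 0.11, adjusted p = 0.0256). The call of slc4a4 was lost without stage 45 replicate 3 or stage 44 replicate 3 (adjusted p between 0.114 and 0.134). The higher genes were clu (log2 fold change 0.90 ± 0.21, adjusted p = 0.004), aldh1l1 (log2 fold change 0.56 ± 0.14, adjusted p = 0.00754) and the glutamate transporter slc1a2 (log2 fold change 0.26 ± 0.08, adjusted p = 0.029; call lost without stage 45 replicates 2 or 3 or stage 44 replicates 1 or 2, adjusted p between 0.0737 and 0.17), these and slc4a4 named after their values were seen. Motile cilia genes fell in 5 of 38 cases (13.2%, near the 11.2% of all genes) and rose in 2 (5.3%, under the 11.6%). The axonemal dynein dnah9 had 13.6, 12 and 13.1 CPM at stage 45, against 23.7, 24.4 and 21 CPM at stage 44 (log2 fold change -0.84 ± 0.13, adjusted p = 7.36e-05). The other lower genes were cfap52 (-0.65 ± 0.13), the adenylate kinase ak7 (-0.66 ± 0.15) and, named after their values were seen, cfap43 (-0.59 ± 0.14) and lrrc23 (-0.61 ± 0.16; call lost without stage 45 replicate 2 or stage 44 replicate 2, adjusted p between 0.0627 and 0.0643). The higher ones were tppp3 (0.41 ± 0.08) and dnah11, also named afterwards (log2 fold change 1.12 ± 0.32, adjusted p = 0.0138). The call of dnah11 was lost without stage 45 replicate 2 or stage 44 replicate 1 (adjusted p between 0.0528 and 0.0882).

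Genes of protein folding in the endoplasmic reticulum were among those that fell. They were counted in a list together with genes of amino acid supply, and the counts were not split between these themes. Of 42 genes of the list of amino acid supply and endoplasmic reticulum stress, 20 fell, 1 rose and 21 were not called (median -0.26), and 19 to 20 fell when any 1 of the 6 libraries was left out. The disulfide isomerase pdia4 had 22.7, 21 and 18.5 CPM at stage 45, against 45.4, 41 and 44.7 CPM at stage 44 (log2 fold change -1.07 ± 0.09, adjusted p = 6.47e-08). The lectin chaperone calr, among the more abundant transcripts, had 965, 964 and 988 CPM at stage 45, against 1281, 1409.8 and 1250.0 CPM at stage 44 (log2 fold change -0.43 ± 0.06, adjusted p = 1.77e-05). The chaperone hsp90b1 had 358, 309 and 306 CPM at stage 45, against 468, 461 and 471 CPM at stage 44 (log2 fold change -0.52 ± 0.07, adjusted p = 1.94e-05). In each case the 3 stage 45 libraries lay below all of stage 44. The isomerase pdia3 (-0.47 ± 0.06) fell too, as did the chaperone hspa5 (-0.39 ± 0.08) and the transcription factors xbp1 (-0.31 ± 0.07) and atf4 (-0.25 ± 0.07), the last 3 named after their values were seen. The gene that rose, named likewise, was sel1l of the degradation complex (log2 fold change 0.20 ± 0.05, adjusted p = 0.00692). In the cytosolic heat shock list, serpinh1, a collagen chaperone that itself resides in the endoplasmic reticulum, had 16.2, 15.2 and 13.6 CPM at stage 45, against 28.4, 29.6 and 26 CPM at stage 44 (log2 fold change -0.89 ± 0.10, adjusted p = 5.34e-06), while the cochaperone dnajb1 rose by 0.36 ± 0.05. That list had 2 of 25 members higher and 5 lower (3 lower without stage 45 replicate 2 or stage 44 replicate 1), and the mitochondrial chaperone hspd1 was among the lower ones (log2 fold change -0.38 ± 0.08, adjusted p = 0.00126; named after its values were seen). Lysosomal genes stayed near the shares of all genes or under them, with 1 of 36 higher and 4 lower. The protective protein ctsa (-0.35 ± 0.06), the cholesterol transporter npc1 (-0.42 ± 0.09) and the progranulin gene grn (-0.34 ± 0.08) fell, as did the peptidase tpp1 (-0.42 ± 0.12; call lost without stage 45 replicate 1 or stage 44 replicate 2, adjusted p between 0.0729 and 0.113).

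Matrix genes fell in 22 of 48 cases and rose in 4 (median -0.21). The cartilage and notochord collagen col2a1, also made by embryonic neuroepithelium, had 239, 231 and 239 CPM at stage 45, against 507, 507 and 472 CPM at stage 44 (log2 fold change -1.07 ± 0.13, adjusted p = 6e-05). The basement membrane proteoglycan hspg2, named after its values were seen, had 63.1, 75.7 and 80.6 CPM at stage 45, against 146, 147 and 149 CPM at stage 44 (log2 fold change -1.01 ± 0.14, adjusted p = 0.000163). The basement membrane collagens col4a5 (-0.56 ± 0.07), col4a1 (-0.64 ± 0.10) and col4a2 (-0.88 ± 0.12) and the laminins lama1 (-0.70 ± 0.09) and lamc1 (-0.43 ± 0.06) fell as well, col4a1 and col4a2 being named afterwards. The 4 higher genes, all named afterwards, are made by neurons in mammals or act on matrix: spock2 (0.39 ± 0.07), spock3 (0.49 ± 0.07), the protease inhibitor timp2 (0.34 ± 0.08) and hapln4, a link protein of perineuronal nets. For hapln4 the values were 1.46, 1.16 and 1.69 CPM at stage 45, against 0.138, 0.354 and 0.262 CPM at stage 44 (log2 fold change 2.51 ± 0.41, adjusted p = 0.000156), the stage 44 ones near the level of 3 counts.

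Some markers of tissues around the brain were lower beside the matrix genes, but they are not fully separate from them. The cartilage calls and the meninges calls col1a1 and col1a2 are collagens, and col2a1 was counted in the matrix list too. The shares that fell were 20% of the cartilage list and 18.75% of the meninges list, beside 11.2% of all genes. Of 15 cartilage and bone genes, 3 fell (col2a1, col9a1 and col9a2) and 0 rose (1 at an unadjusted p under 0.05), and the list summed to between 397 and 409 CPM at stage 45 and between 654 and 699 CPM at stage 44. Most of that sum was col2a1, and the cartilage factor sox9 is shared with glia. Of 23 endothelial genes, 9 fell and 0 rose, with sums of 539 to 586 CPM at stage 45 and 657 to 675 CPM at stage 44. The vessel cadherin cdh5 had 15.9, 16.5 and 14.7 CPM at stage 45, against 22.7, 23.4 and 24.9 CPM at stage 44 (log2 fold change -0.59 ± 0.08, adjusted p = 3e-05). The receptor aplnr (-0.45 ± 0.09) and the clotting factor gene vwf (-1.06 ± 0.22) fell too. Of 16 genes of meninges and choroid plexus, 3 fell (col1a2, col1a1 and foxc1) and 0 rose, with sums of 403 to 431 CPM at stage 45 and 482 to 520 CPM at stage 44. For col1a2 the values were 27.6, 29.6 and 30.4 CPM at stage 45, against 48.2, 44.3 and 46.6 CPM at stage 44 (log2 fold change -0.67 ± 0.11, adjusted p = 0.000146). The collagen col1a1 fell by more but with a wider error (-0.94 ± 0.29; call lost without any 1 of the 6 libraries, adjusted p between 0.0526 and 0.121). The factor foxc1 was lower too (-0.45 ± 0.16; call lost without stage 45 replicates 1 or 2 or stage 44 replicates 1, 2 or 3, adjusted p between 0.0684 and 0.213). Listed markers with no row could not be counted: 5 for endothelium, 10 for cartilage and bone and 7 for meninges and choroid plexus. The presence of the measured ones therefore does not tell how much of these tissues the samples held. The part of such tissue in the matrix result was not tested.

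Red blood cell genes had the lowest median of the 45 lists. Of 18 measured genes 9 fell and 0 rose (median -0.58), and the list summed to between 1470 and 1600 CPM at stage 45 and between 2199 and 2697 CPM at stage 44. The fall of the sum did not last. Its mean was 1551, 2668, 2429, 1551, 2264 and 1122 CPM at stages 40, 42, 44, 45, 46 and 47. Single globins differed from the sum: hbe1, hba2 and hbz fell on, to means of 11, 0.58 and 2.36 CPM at stage 46. For hba4 the step from stage 45 to 46 was not called, with means of 95.2 and 122 CPM (edgeR adjusted p = 0.33). The globin hbe1 had 82.6, 64.7 and 74.7 CPM at stage 45, against 259, 239.6 and 211 CPM at stage 44 (log2 fold change -1.68 ± 0.20, adjusted p = 9.14e-05). The globin hba2 had 1.31, 1.31 and 1.15 CPM at stage 45, against 6.74, 7.14 and 7.41 CPM at stage 44 (log2 fold change -2.48 ± 0.25, adjusted p = 1.02e-06). The globin hbz had 26.1, 18.4 and 12.3 CPM at stage 45, against 121, 136 and 26.6 CPM at stage 44 (log2 fold change -2.28 ± 0.54, adjusted p = 0.00977), and stage 44 replicate 3 was close to the stage 45 values. Globin copies resemble each other and may share reads, so these are uncertain as single genes. The membrane proteins epb42 (-1.20 ± 0.23) and rhag (-0.76 ± 0.19) fell as well. The erythroid spectrin sptb, a member of the axonal list and not of this one, fell by 1.37 on the log2 scale. The part of blood left in the dissected brains was not tested.

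Markers of further tissues were counted in the same way. Many listed markers had no row and were not measured: 15 for microglia and leukocytes, 13 for skeletal muscle and 32 for liver, gut and pancreas. Of 12 complement and acute phase genes 4 fell and 0 rose, among them c3, with 29, 38.7 and 32.4 CPM at stage 45, against 55.9, 56.7 and 56.7 CPM at stage 44 (log2 fold change -0.76 ± 0.17, adjusted p = 0.00589). Of 18 microglia and leukocyte genes 0 rose (1 at an unadjusted p under 0.05) and 1 fell, the receptor csf1r (log2 fold change -0.46 ± 0.14, adjusted p = 0.025). The call of csf1r was lost without stage 45 replicates 2 or 3 or stage 44 replicates 2 or 3 (adjusted p between 0.0645 and 0.0963). Of 26 retina, lens and pineal genes 6 fell and 1 rose (3 fell without stage 45 replicate 2 or stage 44 replicate 2). The pigment epithelium enzyme rpe65 had 28.5, 23 and 30.6 CPM at stage 45, against 48, 48.8 and 46.9 CPM at stage 44 (log2 fold change -0.81 ± 0.11, adjusted p = 3.65e-05). The arrestin sag was the one that rose, with 3.75, 1.07 and 2.85 CPM at stage 45, against 0.554, 0.531 and 0.829 CPM at stage 44 (log2 fold change 1.96 ± 0.37, adjusted p = 0.000641), and its stage 45 libraries ranged widely. In the epidermis and mucosa list, 5 of 20 genes fell and 2 rose (2 to 5 fell and 0 to 2 rose when any 1 of the 6 libraries was left out; 2 fell without stage 45 replicate 3 or stage 44 replicate 2). The list summed to between 446 and 465 CPM at stage 45 and between 507 and 586 CPM at stage 44. The simple keratins krt8.1 (-0.33 ± 0.09; call lost without stage 44 replicate 2, adjusted p = 0.059) and krt18.1 (-0.42 ± 0.12; call lost without stage 45 replicates 2 or 3 or stage 44 replicate 2, adjusted p between 0.0609 and 0.0815) were lower. Their relative krt18.3, named after its values were seen, was higher (1.12 ± 0.37; call lost without stage 45 replicates 1 or 2 or stage 44 replicate 3, adjusted p between 0.101 and 0.135). Keratin copies resemble each other and may share reads. The junction genes cldn1 (-0.37 ± 0.10; call lost without stage 44 replicate 3, adjusted p = 0.0616) and perp (-0.28 ± 0.08; call lost without stage 45 replicates 2 or 3, adjusted p between 0.0624 and 0.0695) were lower too. Of 9 measured genes of liver, gut and pancreas, 3 fell and 1 rose, with sums of 162 to 164 CPM at stage 45 and 156 to 163 CPM at stage 44, and of these calls tf alone was kept without each of the 6 libraries in turn. The lists of skeletal muscle (19 genes; 1 higher at an unadjusted p under 0.05) and melanocytes (15 genes; 2 lower at an unadjusted p under 0.05 and 2 lower in DESeq2) had 0 calls in edgeR. Muscle sums ran from 62.7 to 163 CPM at stage 45 and from 45.6 to 239 CPM at stage 44.

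Chromatin genes included the sharpest rise among abundant transcripts. The histone demethylase kdm6b, which removes a repressive methyl mark, had 595, 756 and 724 CPM at stage 45, against 254, 282 and 261 CPM at stage 44 (log2 fold change 1.38 ± 0.09, adjusted p = 1.06e-08). The gene jarid2, a partner of the Polycomb complex that writes this mark, was named after its values were seen and had 249, 285 and 259 CPM at stage 45, against 129.8, 125 and 131 CPM at stage 44 (log2 fold change 1.04 ± 0.07, adjusted p = 2.53e-09). For both, every stage 45 library was far above every stage 44 library, though for kdm6b separate groups were a condition for naming it among the largest changes. Of 47 chromatin remodelers 4 rose (8.51%, under the 11.6% of all genes) and 8 fell (17%, beside 11.2%). Without stage 45 replicate 1, 5 fell. The higher ones included the remodeler chd2, which rose by 0.41 ± 0.06, and hdac3 (log2 fold change 0.22 ± 0.07, adjusted p = 0.0211; named afterwards). The call of hdac3 was lost without stage 45 replicates 1 or 2 or stage 44 replicates 1 or 2 (adjusted p between 0.078 and 0.0975). The lower ones included chd7 (-0.32 ± 0.06) and, named afterwards, the helicases smarca4 (-0.32 ± 0.07) and chd4 (-0.27 ± 0.05).

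**Figure D4:**
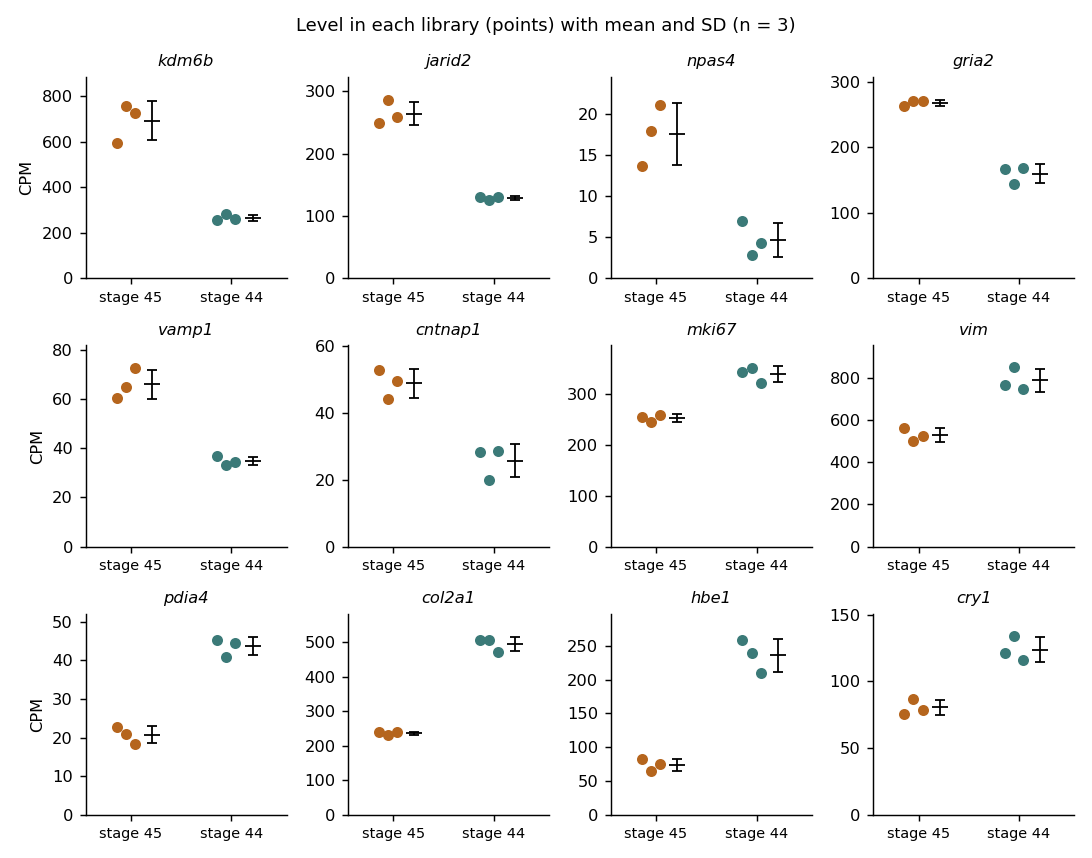
CPM (y axes, each from 0) of 12 genes in the 3 libraries of stage 45 (left in each panel) and of stage 44 (right), with the mean and SD beside the points. The groups do not overlap in any of the 12 panels, which was a condition for naming kdm6b, npas4 and hbe1 among the largest changes.

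Genes induced by neuronal activity were called about as often as all genes. Of 31 immediate early genes 4 rose (12.9%) and 3 fell (9.7%), near the 11.6% and 11.2% of all genes. The activity-dependent factor npas4, whose transcript in mammals follows calcium entry into neurons, had 13.6, 17.9 and 21.1 CPM at stage 45, against 6.92, 2.89 and 4.27 CPM at stage 44 (log2 fold change 1.86 ± 0.31, adjusted p = 0.000889). Its groups did not overlap, which was a condition for naming it among the largest changes. The zinc finger factor egr3 was low, with 1.36, 0.97 and 1.31 CPM at stage 45, against 0.508, 0.413 and 0.654 CPM at stage 44 (log2 fold change 1.17 ± 0.31, adjusted p = 0.00876). The classical activity marker fos did not move with them: it had 12.42, 16.2 and 21.1 CPM at stage 45, against 23.6, 14 and 19.9 CPM at stage 44, and the groups overlapped (log2 fold change -0.24 ± 0.24, adjusted p = 0.513). The AP-1 member listed as jund.2 (0.58 ± 0.09) and the synaptic scaffold homer1 (0.17 ± 0.05; call lost without stage 45 replicates 2 or 3 or stage 44 replicates 1 or 2, adjusted p between 0.0571 and 0.107) were the other higher genes. The lower ones were the growth-factor-induced gene ccn1 (log2 fold change -0.71 ± 0.10, adjusted p = 5.03e-05), dusp1 (-0.27 ± 0.09; call lost without stage 45 replicates 2 or 3 or stage 44 replicates 1 or 2, adjusted p between 0.0829 and 0.176) and zfp36 (-0.40 ± 0.14; call lost without stage 45 replicates 1, 2 or 3 or stage 44 replicates 1 or 3, adjusted p between 0.0561 and 0.215). DESeq2 called 6 lower genes of this list, and scaling by library totals 1. The genes homer1, dusp1 and zfp36 were named after their values were seen.

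Circadian clock genes changed in both directions, with 9 of 28 higher and 6 lower (5 higher without stage 44 replicate 2). The repressor cry1 had 75.8, 86.7 and 78.8 CPM at stage 45, against 121, 134 and 116 CPM at stage 44 (log2 fold change -0.62 ± 0.06, adjusted p = 1.05e-06). Its relative cry2 had 45.6, 45.5 and 45.5 CPM at stage 45, against 30.4, 33.1 and 29.8 CPM at stage 44 (log2 fold change 0.55 ± 0.08, adjusted p = 4.07e-05). The 2 cryptochromes thus moved in opposite directions, without overlap between groups. The output factor tef rose by 0.44 ± 0.08, and the activators arntl (0.49 ± 0.11) and rora (0.48 ± 0.10), both named after their values were seen, rose as well. The repressor per2 had 16.6, 16.1 and 16.4 CPM at stage 45, against 22.9, 20.3 and 19.8 CPM at stage 44 (log2 fold change -0.36 ± 0.11, adjusted p = 0.0243; call lost without stage 45 replicates 1, 2 or 3 or stage 44 replicate 1, adjusted p between 0.0561 and 0.106). The gene timeless, which also acts at replication forks, fell by 0.33 on the log2 scale.

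Hormone genes moved singly. In the thyroid list of 21 genes 3 rose (14.3%, near the 11.6% of all genes) and 1 fell (4.76%, under the 11.2%). Without stage 45 replicate 2, stage 44 replicate 2 or stage 44 replicate 3, 1 rose. The coactivator ncoa3 had 88.4, 101 and 95.4 CPM at stage 45, against 71.7, 70.6 and 67 CPM at stage 44 (log2 fold change 0.45 ± 0.08, adjusted p = 0.000483). The activating deiodinase dio2 had 37.1, 33.9 and 34.5 CPM at stage 45, against 47.5, 42.6 and 44.2 CPM at stage 44 (log2 fold change -0.35 ± 0.09, adjusted p = 0.00515). The receptor thrb had 8.96, 11 and 11.3 CPM at stage 45, against 9.19, 7.26 and 7.54 CPM at stage 44, with overlapping groups (log2 fold change 0.37 ± 0.12, adjusted p = 0.0247; call lost without stage 45 replicates 2 or 3 or stage 44 replicates 2 or 3, adjusted p between 0.0866 and 0.118). The third higher gene was the receptor trhr (log2 fold change 0.63 ± 0.19, adjusted p = 0.0217). The call of trhr was lost without stage 45 replicate 2 or stage 44 replicates 2 or 3 (adjusted p between 0.0534 and 0.135). The thyroid hormone response genes klf9 (log2 fold change 0.72 ± 0.29, adjusted p = 0.0803) and dio3 (log2 fold change -0.04 ± 0.30, adjusted p = 0.94) did not pass, and both were under 2 CPM in all 6 libraries. Among 20 genes of the glucocorticoid response, 3 rose (15%, beside 11.6% of all genes) and 5 fell (25%, beside 11.2%). The tyrosine-catabolizing enzyme tat, a classical liver target of glucocorticoids in mammals, had 15.7, 16.7 and 14.5 CPM at stage 45, against 6.46, 4.6 and 7.11 CPM at stage 44 (log2 fold change 1.35 ± 0.14, adjusted p = 1.57e-06). The lipase inhibitor angptl4 had 54.7, 55.5 and 47.7 CPM at stage 45, against 92, 97.3 and 92.6 CPM at stage 44 (log2 fold change -0.83 ± 0.18, adjusted p = 0.00528). The receptor gene nr3c1, through which glucocorticoids act, rose by 0.32 ± 0.08 (call lost without stage 45 replicate 2 or stage 44 replicate 2, adjusted p between 0.0519 and 0.0601), and errfi1 was lower (log2 fold change -0.37 ± 0.10, adjusted p = 0.0124). The call of errfi1 was lost without stage 45 replicate 2 (adjusted p = 0.0568). When any 1 of the 6 libraries was left out, between 1 and 3 genes of this list rose and between 2 and 4 fell.

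Fuel and translation genes changed little in size. Of 37 genes of glycolysis and fuel use 10 rose and 3 fell (5 rose and 0 fell without stage 44 replicate 2). The glycolytic enzyme pgam1 had 322, 322 and 299 CPM at stage 45, against 249.6, 214 and 262 CPM at stage 44 (log2 fold change 0.38 ± 0.06, adjusted p = 0.000217), and pkm (0.30 ± 0.06) and aldoa (0.27 ± 0.06) rose by about 0.3. The respiratory chain had 2 of 69 genes higher and 2 lower, under the shares of all genes. The lower ones were sdha, with 73.2, 65.5 and 62.4 CPM at stage 45, against 86.8, 86.4 and 86 CPM at stage 44 (log2 fold change -0.36 ± 0.06, adjusted p = 0.000355), and ndufb1 (-0.55 ± 0.11); 6 were lower without stage 45 replicate 1. The higher ones were cox4i2 (0.79 ± 0.19) and ndufb8 (0.19 ± 0.06; call lost without stage 45 replicates 1 or 3 or stage 44 replicates 1, 2 or 3, adjusted p between 0.0575 and 0.194). Cytosolic ribosomal proteins had 2 of 74 lower (rpl3 and rpl9) and 0 higher (1 higher and 2 lower in limma on the deposited values). Between 0 and 7 were lower when any 1 of the 6 libraries was left out, 0 of them without stage 45 replicate 2. Ribosome biogenesis had 11 of 40 lower and 2 higher, and 4, 4 and 6 were lower without stage 45 replicate 2, stage 44 replicate 1 and stage 45 replicate 3. The nucleolar helicase ddx21 was among the higher ones, with 925, 882 and 917 CPM at stage 45, against 709, 744 and 732 CPM at stage 44 (log2 fold change 0.32 ± 0.06, adjusted p = 0.000277). In cholesterol synthesis 5 of 29 genes rose (17.2%, beside 11.6% of all genes) and 3 fell (10.3%, near the 11.2%). When any 1 of the 6 libraries was left out, 2 to 4 rose and 1 to 4 fell. The enzyme dhcr7 of its last step had 38.2, 37.7 and 30.9 CPM at stage 45, against 55, 60.9 and 45.3 CPM at stage 44 (log2 fold change -0.58 ± 0.11, adjusted p = 0.000664).

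The remaining genes of the 12 largest rises and 12 largest falls were mostly of low abundance. The germ-plasm gene tdrd6 had 6.87, 9.65 and 7.77 CPM at stage 45, against 4.48, 2.42 and 2.27 CPM at stage 44 (log2 fold change 1.40 ± 0.21, adjusted p = 7.36e-05). The acetylcholine receptor subunit chrne, known from muscle, had 7.35, 6.64 and 5.69 CPM at stage 45, against 2.86, 2.01 and 2.18 CPM at stage 44 (log2 fold change 1.48 ± 0.28, adjusted p = 0.000925), while the muscle list had 0 calls. The actin-binding relatives vill (1.36 ± 0.23) and avil (1.29 ± 0.32) and the galectin lgals9 (1.19 ± 0.14) rose. Among the falls, plekhb2 had 19.1, 18.5 and 21.8 CPM at stage 45, against 88.6, 43.3 and 62.2 CPM at stage 44 (log2 fold change -1.72 ± 0.29, adjusted p = 0.00128), and its stage 44 libraries ranged widely. The neuropeptide gene pth2 had 4.33, 3.15 and 2.54 CPM at stage 45, against 8.45, 7.56 and 8.68 CPM at stage 44 (log2 fold change -1.27 ± 0.22, adjusted p = 0.000298). The iron carrier tf had 0.925, 1.21 and 1.46 CPM at stage 45, against 3.83, 4.78 and 3.84 CPM at stage 44 (log2 fold change -1.81 ± 0.31, adjusted p = 0.00044). The keratin krt12.3 was uneven at stage 44, with 1.75, 0.679 and 0.923 CPM at stage 45, against 11.1, 3.07 and 2.14 CPM at stage 44 (log2 fold change -2.26 ± 0.57, adjusted p = 0.0101). The call of krt12.3 was lost without stage 45 replicate 2 (adjusted p = 0.0524).

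The step was then set beside its neighbours. The change from stage 44 to 45 differed from that from stage 45 to 46 in 4079 genes (25.4%; 14.8% with the more positive change in this step and 10.6% in the next). It differed from the change from stage 42 to 44 in 653 genes (4.07%; 1.68% and 2.39% in the same sense). This last count ran from 153 without stage 44 replicate 2 to 1233 without stage 42 replicate 1. Some genes were higher at stage 45 than at the stages on either side. Mean kdm6b was 434, 240.1, 266, 692, 289 and 433 CPM at stages 40, 42, 44, 45, 46 and 47, and its step from 44 to 45 exceeded the next one by 2.64 ± 0.15, adjusted p = 3.99e-10. The cryptochrome cry2 had 48.4, 25.7, 31.1, 45.5, 26.6 and 58.2 CPM over the same stages (difference of steps 1.33 ± 0.14, adjusted p = 4.46e-07). Both were lower at stages 42, 44 and 46 than at stages 40, 45 and 47, and cry2 was higher at stages 40 and 47 than at stage 45.

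Other genes dipped at stage 45. Mean stmn1 was 37.2, 68.4, 68, 42, 71.4 and 43.3 CPM over the 6 stages (difference of steps -1.46 ± 0.13, adjusted p = 4.69e-08). The neuropeptide gene pth2 had 1.03, 3.56, 8.23, 3.34, 17.4 and 12.8 CPM (difference of steps -3.62 ± 0.39, adjusted p = 1.44e-06). Other changes ran on in the same direction after stage 45. Mean npas4 was 2.24, 5.16, 4.7, 17.5, 38.4 and 64.4 CPM over the 6 stages. For rrm2.2 the means were 157, 164, 197, 116, 72.4 and 6.54 CPM, so its fall began from its highest level, at stage 44. The steps on either side share libraries with the step described here, so no overlap of their calls is given.

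**Figure D5:**
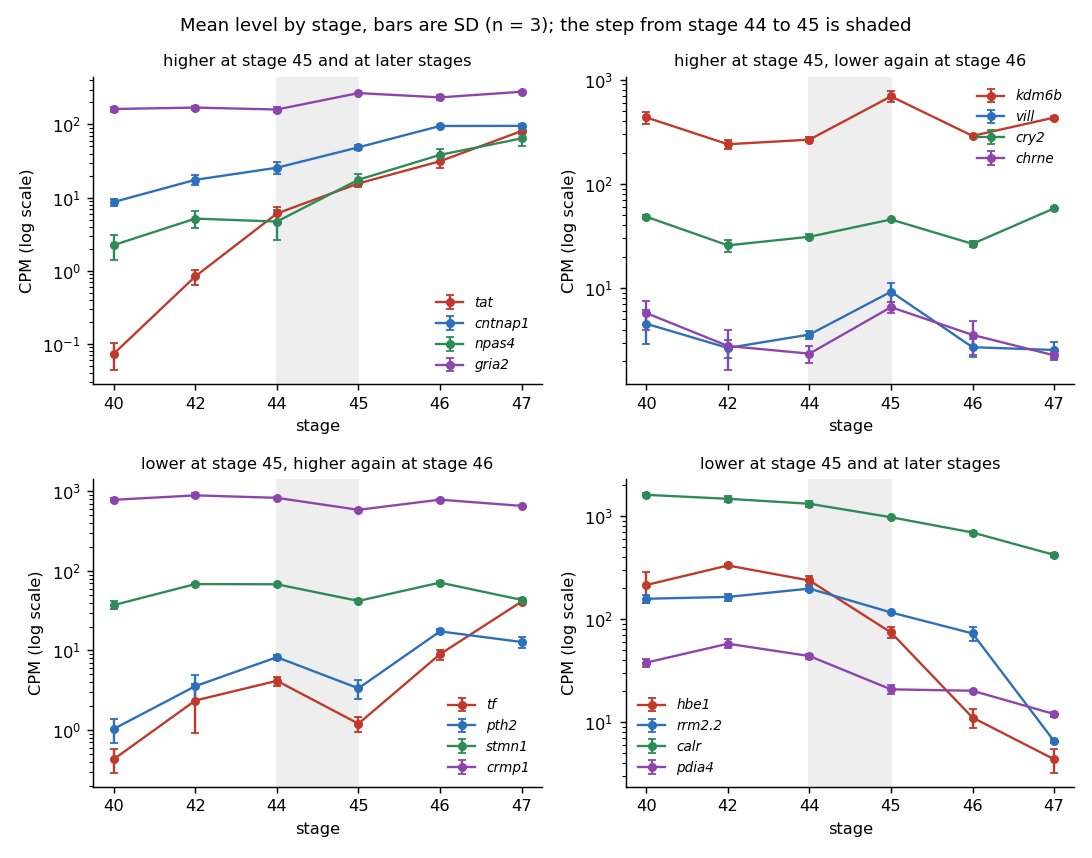
Mean CPM (y axes, log scale) at the 6 stages (x axes) with SD bars (n = 3), lower bars shortened where they would reach 0, for 16 genes in 4 panels by their course around the shaded step from stage 44 to 45. kdm6b is highest at stage 45 and stmn1 and pth2 dip there, whereas npas4 keeps rising and rrm2.2 keeps falling.

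The later step from stage 46 to 47 shares no library with this one. Of all genes, 23% rose and 25.8% fell there. Of the 1867 genes higher at stage 45 than at stage 44, 949 were also higher at stage 47 than at stage 46, which is 50.8% of these and 25.7% of the 3699 that rose later, and 146 were lower. Of the 1800 lower genes, 905 were also lower at stage 47, which is 50.3% of these and 21.9% of the 4136 that fell later, and 233 were higher.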

How the data were processed

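Brain RNA-seq libraries of Xenopus tropicalis were analysed from 2 tables of the untreated time course (18 libraries). The first table deposited by the authors holds raw read counts of 16049 genes as whole numbers. The other holds deposited log2 values that, judged by their distribution, were full-quantile normalized. The submitters' processing notes name STAR 2.7.3; build, annotation, read counter and strand setting were not given in the sources used here. The drug tables were not used here. The filter for low counts (filterByExpr) removed 0 genes. The raw counts hold the same genes as the deposited log2 values, which are labelled as filtered, so low genes may have been removed before deposit. Of the listed symbols, 280 had no row, and each list covers its measured members only. No usable symbol was given for 3366 genes (21%), which were tested but not named. No sequence or coordinate was used.

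From the counts, edgeR 4.0.16 (R 4.3.3) was fitted to all 18 libraries with TMM factors and 1 mean per stage, and tested by its quasi-likelihood F-test in robust mode. Genes were called where the p adjusted by Benjamini-Hochberg across all 16049 genes was under 0.05. Fold changes are log2 values of stage 45 over stage 44 ± SE (n = 3 per group), and CPM are scaled by the TMM factors. Differences between steps were contrasts in the same fit. Floors of 3 counts cover counting error only. Replicates differed beyond counting noise. On simulated data for stage 45 against stage 44 with 16049 genes, the test found 62.7% of the genes changed 1.5-fold, 88.1% of those changed 2-fold and 100% of those changed 4-fold, and 5.11% of its calls were false. In the simulation few genes were changed, none by less than 1.5-fold, and each gene had the same spread at all stages. Of the 3667 calls in the data, 875 exceeded 0.58 log2 units (1.5-fold), so these rates do not carry over to the smaller changes.

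The comparison and the 45 lists (1392 genes in the table) were chosen with earlier results of these data known. Named genes were the 12 called genes that rose most and the 12 that fell most, if their log2 CPM averaged 1 or more, their groups did not overlap and their symbol was usable, up to 4 called members per list with the lowest p, and core genes reported whatever their values. A few genes the rule chose are not reported here. Genes outside this rule are said in the text to be named after their values were seen. Alternatives were other scaling, no filter, a mean of at least 5 CPM, only the stages compared, a replicate block, DESeq2 1.42.0, limma 3.58.1 on the deposited log2 values, and leaving out each library.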

Additional observations from a re-analysis of the deposited data

Results flagged for a closer look

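For 11 of the genes with the largest changes, the step from stage 44 to 45 and the step from stage 45 to 46 were each called and ran in opposite directions, and the difference between the steps itself passed edgeR's test. The difference, in log2 units, was 2.64 for kdm6b, 3.10 for vill, 2.93 for avil, 2.36 for tdrd6, 2.35 for chrne, 2.13 for aadac and 1.89 for usp35, which were highest at stage 45 among these 3 stages. It was -4.75 for tf, -3.62 for pth2, -2.53 for plekhb2 and -2.15 for rnls, which were lowest at stage 45. The adjusted p of these differences ran from 3.99e-10 for kdm6b to 0.00419 for plekhb2. The genes were chosen by these same conditions and from the same stage 45 values. A passing difference was therefore nearly built into the choice and is no separate support. Both steps use the stage 45 libraries, so a property of these libraries and a property of the stage cannot be told apart. Of these genes, kdm6b is abundant and the others averaged under 70 CPM at each of the 3 stages.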

How the results depend on the processing

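The number of genes called between stage 45 and stage 44 stayed between 3329 and 4008 under the scaling, filter, design and tool alternatives, and ran from 2552 to 3254 when 1 library was left out (higher genes 1198 to 1697, lower genes 1246 to 1557). Against the next step, counts ran from 2759 to 3896 (2381 higher in the full data, 1614 to 2300 here; lower 1145 to 1768). Against the previous step, they ran from 153 to 1233 (higher 28 to 485, lower 125 to 748); fitting only the libraries of the stages compared gave 414 (139 higher), and DESeq2 gave 587 lower. The fit with replicate number as a block called 3600 genes (1827 higher, 1773 lower). Same-numbered libraries of stages 45 and 44 did not deviate together (correlations of -0.0449, -0.0126 and -0.0773). With 3 libraries per stage this check cannot exclude shared clutches or days, and the libraries were treated as unpaired. Of 268 named calls, 255 to 264 were kept under these alternatives (237 of 237 with at least 5 CPM) and 204 to 233 without 1 library. The setting without a filter is left out of this range, because the filter removed 0 genes and that fit repeats the main one. Directions turned without some single libraries for sox2 (-0.101 to 0.0106 over the 6) and dio3 (-0.269 to 0.0972), none of these called, and for tubb2b in the deposited quantile-normalized values (0.0213); the cause was not tested. Depth limits genes near 3 counts, such as hapln4 at stage 44.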
